A study of Mus musculus with 4 samples.

Results

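The 94 protein-coding nuclear genes examined here encode the machinery of oxidative phosphorylation. They were taken by symbol from the 22367 protein-coding nuclear genes of the GENCODE M1 annotation: names starting with Nduf, Uqcr, Atp5, Cox4, Cox5, Cox6, Cox7 or Cox8, with Sdha, Sdhb, Sdhc, Sdhd, Cyc1 and Cycs added. The 94 entries carry 93 symbols, because Ndufb8 has 2 gene entries. The names also bring in Cox4nb, a neighbour of Cox4i1 that encodes no subunit, and Atp5l-ps1, which is named as a pseudogene. Binding of SHP (NR0B2), a nuclear receptor that acts as a corepressor, was measured by ChIP-seq in whole liver of male wild-type C57BL/6 mice aged 8 to 12 weeks. All mice had 12 h without food and then a tail vein injection, of vehicle in the control group and of FGF19 (1 mg/kg) in the other; livers were taken 2 h afterwards. Material from 3 mice was pooled into 1 SHP ChIP library and 1 input library in each group. There is therefore no replicate error, no difference between the groups could be tested, and the liver cell types cannot be told apart. After duplicate removal the ChIP libraries held 15473647 tags with vehicle and 13444078 with FGF19, and the peak lists hold 1508 and 3155 peaks.

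Oxidative phosphorylation runs in the inner mitochondrial membrane. Complexes I and II pass electrons from NADH and succinate to ubiquinone, complex III passes them to cytochrome c, and complex IV passes them to oxygen. ATP synthase, complex V, uses the resulting proton gradient. Most subunits are encoded in the nucleus, and the promoters of many are known targets of NRF1 and of the ETS factor GABP. Liver relies on this machinery for gluconeogenesis, ureagenesis and fatty acid oxidation. Peak lists hold no RNA levels, so nothing below says how strongly these genes were expressed.

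SHP peaks lay within 5 kb of 18 of the 94 gene bodies with vehicle and of 27 with FGF19. These are 19.1% of the genes with vehicle (Wilson 95% interval 12.5 to 28.3) and 28.7% with FGF19 (20.6 to 38.6). Over all protein-coding nuclear genes the shares were 7.93% with vehicle and 16.3% with FGF19. A peak of each list was near 10 of the genes, 10.6% (5.88 to 18.5), against 4.31% of all genes. Intervals cover counting error only, and neighbouring genes can share 1 peak. Of the remainder, 8 genes (8.51%) were near a vehicle peak only, 17 (18.1%) near an FGF19 peak only and 59 (62.8%) near none, against 3.62%, 12% and 80.1% of all genes. The ratio of genes with an FGF19 peak to genes with a vehicle peak was 1.5 here and 2.05 over all genes. With the summit required within 1 kb of a TSS of the gene itself, 16 genes had a promoter peak with vehicle and 20 with FGF19. These are 17.0% and 21.3%, against 5.43% and 12.3% of all genes, and the ratio was 1.25 against 2.27. A peak of either list was within 5 kb of 35 genes (37.2%, against 19.9% of all genes) and at the promoter of 28 (29.8%, against 15.2%). Both shares stood above those over all genes. The 22367 include genes that are silent in liver, and expression was not matched. The median gene body was shorter here, at 7333 bp against 15430 bp over all genes.

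**Figure D1:**
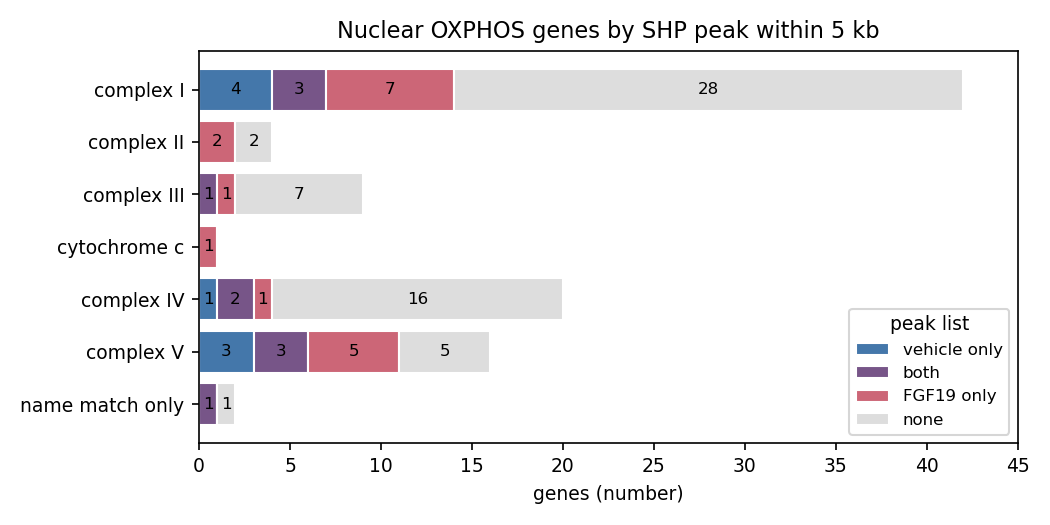
Number of nuclear oxidative phosphorylation genes (x axis, genes) in each complex (y axis), split by whether an SHP peak lay within 5 kb in the vehicle list only, both lists, the FGF19 list only or neither. Complex V has peaks at 11 of 16 genes, and complex IV at 4 of 20, or 20.0%, beside 19.9% of all protein-coding nuclear genes. The counts include genes whose peaks lay only at promoters of other genes, such as Atp5g1 and Atp5o of complex V.

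The complexes differed in how many of their genes had a peak, although the groups of genes are small. In complex V, a peak of either list was near 11 of 16 genes, 68.8% (44.4 to 85.8), with 6 near a vehicle peak and 8 near an FGF19 peak. Of these, Atp5g1 and Atp5o were counted only through peaks at promoters of other genes. Promoter peaks of complex V were at 9 genes, 56.25%, against 15.2% of all genes. Genes of the membrane part and the stalks (Atp5f1, Atp5g3, Atp5h, Atp5j, Atp5k, Atp5l) and of the small central-stalk subunits (Atp5d, Atp5e) were among them. The genes of the alpha, beta and gamma subunits (Atp5a1, Atp5b, Atp5c1), which form the catalytic head and its rotor, had no peak, nor had Atp5g2 and Atp5j2. In complex I, 14 of 42 genes had a peak, 33.3% (21.0 to 48.5), and 10 of them at the promoter (23.8% of the 42). The core subunits that carry the redox centres had a peak at 4 of 7 genes, 3 of them at the promoter. The supernumerary subunits had one at 9 of 30, 6 of them at the promoter (20.0%, against 15.2% of all genes). The assembly factors had one at 1 of 5. Ndufs8, Ndufs6, Ndufa6 and Ndufb10 were counted only through peaks at promoters of other genes. Complex III had peaks at 2 of 9 genes, Uqcrh and Uqcrq, and none at Cyc1, at Uqcrfs1 of the Rieske protein or at the core protein genes Uqcrc1 and Uqcrc2. In complex IV the genes with a peak were Cox4i1, Cox5b, Ndufa4 and Cox7a2l, 4 of 20 (20.0%, 8.07 to 41.6), the same share as over all genes (19.9%). None of 7 isoform genes used mainly in other tissues (Cox4i2, Cox6a2, Cox6b2, Cox7a1, Cox7b2, Cox8b, Cox8c) had a peak. Of their widely expressed relatives, Cox4i1 had peaks in both lists, and Cox6a1, Cox6b1, Cox7a2, Cox7b and Cox8a had none. This isoform group was picked after the values were seen. Of the 4 complex II genes, Sdha and Sdhd had an FGF19 peak and Sdhb and Sdhc had none. Cycs, the cytochrome c gene, had an FGF19 peak. The order of the complexes is a description of these genes, with no test.

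At 7 regions near these genes a vehicle peak and an FGF19 peak shared at least 1 bp, and 6 of the regions were at promoters of the genes. Fold enrichment, the ratio of ChIP pileup to local input background, was larger with FGF19 at 5 of the 7, with a median difference (FGF19 minus vehicle) of 0.46 on the log2 scale. Over all 678 shared regions it was larger in 329, and the median was -0.02 with quartiles of -0.36 and 0.32. On the pileup scaled to 1000000 tags of each library, the median log2 difference was 0.45 over the 7 regions. Over all 678 it was 0.20 (quartiles -0.02 and 0.43), so the 7 stood closer to the rest on that scale. Tags were extended to 260 bp with FGF19 and to 240 bp with vehicle. The scaled pileups given here and below are not corrected for that. The 7 regions are too few for more than a side-by-side reading, and none of the differences has a replicate check.

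Ndufa4 had the largest vehicle fold enrichment of all these genes, and the only one of the 7 regions with a clearly smaller value with FGF19 was at its promoter. Its product was long counted with complex I and is now placed in complex IV. The region, chr6:11857415-11857924, lies upstream of the gene, with the summits 198 bp upstream of the TSS with vehicle and 233 bp with FGF19. The vehicle peak had a fold enrichment of 7.97 and the FGF19 peak 4.34, 1.84-fold lower, and the pileup at the summit was 68 tags and 34 tags. Scaled to 1000000 tags of the library, the pileup was 4.40 and 2.53. The vehicle peak ranked 87 of 1508 by fold enrichment, the FGF19 peak 1185 of 3155, and only 37 of the 678 shared regions had a lower log2 ratio. The other regions gave smaller differences or the opposite sign. The peak core around the FGF19 summit is printed from the gene's strand (minus, chr6:11857539-11857819) because this region is the exception. Of the consensus sequences searched it held none.
Ndufa4: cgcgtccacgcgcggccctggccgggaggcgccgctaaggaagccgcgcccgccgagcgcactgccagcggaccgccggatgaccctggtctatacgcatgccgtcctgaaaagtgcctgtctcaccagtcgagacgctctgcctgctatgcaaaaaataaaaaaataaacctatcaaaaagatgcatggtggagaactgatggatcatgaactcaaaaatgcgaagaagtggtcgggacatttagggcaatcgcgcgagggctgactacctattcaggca

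Uqcrh, the hinge protein gene of complex III, shares its promoter with Lrrc41 on the opposite strand. The region chr4:115747773-115748430 gave 4.16 in the vehicle list and 5.72 in the FGF19 list, the largest FGF19 value of all these genes. The pileups were 43 and 44 tags, or 2.78 and 3.27 when scaled to 1000000 tags, and the local background was 9.57 with vehicle and 6.86 with FGF19. The summits lay nearer to the Lrrc41 TSS, at 71 bp and 112 bp, than to that of Uqcrh, at 269 bp and 310 bp. Ndufb5, a supernumerary subunit gene of complex I that faces the mitochondrial ribosomal protein gene Mrpl47, had values of 4.94 and 5.65 at chr3:32635603-32636166, with 37 and 44 tags. Both regions held the YY1 core AANATGGC within 100 bp of the summits, Uqcrh with 2 matches and Ndufb5 with 1. The Uqcrh matches lay outside the promoter window of Uqcrh read below. The sequences are shown for this core, in capitals, which is read on the opposite strand at Uqcrh. The Uqcrh stretch is chr4:115747989-115748126 on the minus strand and holds 1 of its matches, and the Ndufb5 stretch is chr3:32635901-32635930 on the plus strand.
Uqcrh: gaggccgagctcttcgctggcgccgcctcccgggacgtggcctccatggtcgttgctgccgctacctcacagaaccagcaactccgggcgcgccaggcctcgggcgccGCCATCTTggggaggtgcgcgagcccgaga
Ndufb5: tgccctcactcAATATGGCctcctctagcg

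Cox4i1, which encodes a subunit of complex IV used in most tissues, and Cox4nb start back to back and share the region chr8:123191935-123192557. The vehicle peak there had a fold enrichment of 3.41 from 22 tags, and the FGF19 peak 4.80 from 28. Atp5g3, 1 of the 3 genes of the ATP synthase c ring, had 2.97 and 4.47 at chr2:73749116-73749452, with 19 and 26 tags. The vehicle peak of Atp5g3, with a -log10 q of 1.95, was close to the cutoff of the list. Only 63 of the 678 shared regions had a higher log2 ratio than Atp5g3, at 0.59. One of these was the shared region inside the annotated Atp5o body, at the Itsn1 promoter. It had the largest ratio of the shared regions near these genes, 0.63, from 2.66 with vehicle to 4.11 with FGF19. Its vehicle peak was also close to the cutoff, with a -log10 q of 1.71. At Atp5s, the gene of coupling factor B, the values were 4.01 and 3.99. The pileup there was 27 and 36 tags over a background of 5.99 and 8.28. The Cox4i1 stretch is shown for its row of SP1 and ETS matches, and the Atp5g3 stretch for an NRF1 match. Within 100 bp of the summit, Cox4i1 was the only 1 of 19 FGF19 promoter peaks of these genes with SP1. That is 5.26%, against 17.1% of all peaks near a TSS. With vehicle SP1 was at 2 of 15, 13.3%, against 17.55%. Capitals mark SP1 (CCCCGCCCC) and ETS (CCGGAAG) sites on either strand in Cox4i1 (chr8:123192005-123192214, plus strand) and the NRF1 core (GCGCANGCG, read on the opposite strand) in Atp5g3 (chr2:73749133-73749323, minus strand).
Cox4i1: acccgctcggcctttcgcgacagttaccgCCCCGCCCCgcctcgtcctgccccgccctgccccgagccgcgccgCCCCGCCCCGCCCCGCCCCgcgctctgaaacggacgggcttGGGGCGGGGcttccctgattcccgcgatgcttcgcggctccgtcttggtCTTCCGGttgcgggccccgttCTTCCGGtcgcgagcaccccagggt
Atp5g3: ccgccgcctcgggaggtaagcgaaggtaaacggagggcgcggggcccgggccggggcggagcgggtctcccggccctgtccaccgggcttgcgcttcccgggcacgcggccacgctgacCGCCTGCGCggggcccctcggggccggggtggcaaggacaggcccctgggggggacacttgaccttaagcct

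**Figure D2:**
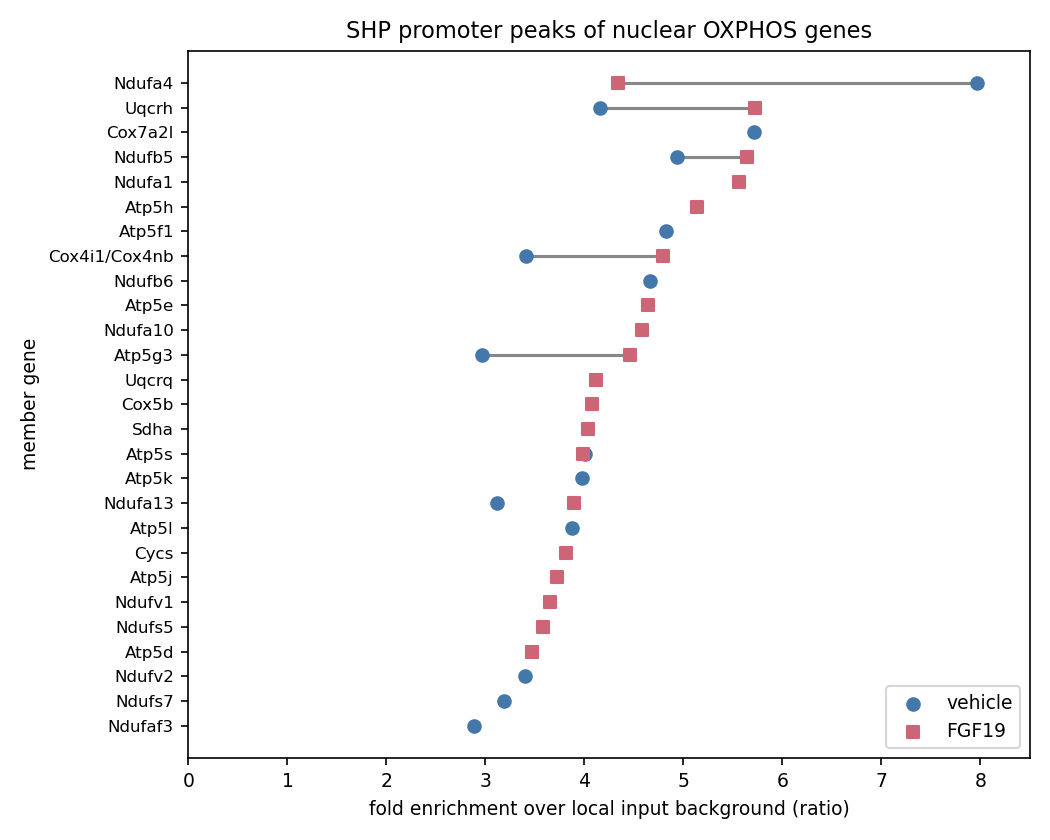
Fold enrichment (x axis, ratio to local input background) of the strongest promoter peak of each gene (y axis), with vehicle (circles) and FGF19 (squares); grey lines join peaks of the 2 lists that share at least 1 bp. Ndufa4 is at 7.97 with vehicle and 4.34 with FGF19, and no other joined pair differs by as much.

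Promoter peaks of the FGF19 list were at 20 of the 94 genes (21.3%), and 8 genes (8.51%) had one in each list. Over all genes these shares were 12.3% and 2.55%. Among genes with a promoter peak in the FGF19 list alone, which number 12, the values covered a narrow range. The largest was at Ndufa1, a small complex I subunit, with a fold enrichment of 5.57. Its pileup was only 15 tags and its background 1.87, the lowest of these peaks, and the summit lay 1 bp from the TSS of Rnf113a1. Atp5h, for the d subunit of the ATP synthase stalk, followed with 5.13 and 24 tags, its summit 28 bp upstream of the TSS. Atp5e and Ndufa10 had 4.64 and 4.58, with summits 58 bp and 102 bp downstream. Uqcrq, a complex III subunit at the ubiquinone site, had 4.12 with 35 tags. Cox5b of complex IV had 4.08 and Sdha, the flavoprotein of succinate dehydrogenase, 4.03. For Cycs the fold enrichment was 3.82 with 29 tags, 26 bp upstream of the TSS. Atp5j had 3.72, Ndufv1, the subunit that takes electrons from NADH, 3.65, Ndufs5 3.58 and Atp5d 3.47. The Atp5h promoter holds 3 kinds of consensus and is shown for that. Capitals mark 1 NRF1 match, 2 NF-Y matches (ATTGGC) and 1 ETS match on either strand in chr11:115281252-115281444, minus strand.
Atp5h: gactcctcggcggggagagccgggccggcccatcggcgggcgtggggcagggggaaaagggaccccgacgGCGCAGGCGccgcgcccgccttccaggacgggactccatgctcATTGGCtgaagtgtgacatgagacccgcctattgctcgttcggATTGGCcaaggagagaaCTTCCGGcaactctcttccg

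Promoter peaks of the vehicle list were at 16 of the 94 genes (17.0%), and 8 genes (8.51%) had one in each list. Over all genes these shares were 5.43% and 2.55%. The vehicle list alone had a promoter peak at 7 further genes that had no FGF19 peak within 5 kb. Cox7a2l, listed here with complex IV as a supercomplex factor, had the largest value among them, 5.71 with 43 tags and a -log10 q of 16.0. Atp5f1, the b subunit of the ATP synthase stalk, had 4.82 with 50 tags, its summit 37 bp from the TSS of Wdr77. From Atp5f1 it was 767 bp downstream of the nearest protein-coding TSS, but 56 bp from a TSS when all annotated transcripts were taken. Ndufb6 had 4.66 with 23 tags, and Atp5k and Atp5l, membrane subunits of ATP synthase, had 3.98 and 3.88. Ndufs7, the core subunit that holds the last iron-sulfur cluster of complex I, had 3.18, and the assembly factor gene Ndufaf3 2.89. Ndufv2, also a core subunit, had a vehicle promoter peak of 3.40, 68 bp upstream, while its FGF19 peak lay elsewhere. At Ndufa13 the lists had separate peaks, 3.11 with vehicle in the coding sequence of exon 2 and 3.90 with FGF19 441 bp upstream. The vehicle summit was 577 bp from the TSS of Tssk6 and 951 bp from that of Ndufa13. A Tssk6 TSS also lay within 1 kb of the FGF19 summit. A gene missing from a list has no peak past the q-value cutoff of 0.05, and signal under it was not analysed here. The Cox7a2l promoter is shown as the strongest peak of this kind (chr17:83913694-83913974, minus strand), with an NRF1 match in capitals that lies outside both windows searched below and is not among the counts given there.
Cox7a2l: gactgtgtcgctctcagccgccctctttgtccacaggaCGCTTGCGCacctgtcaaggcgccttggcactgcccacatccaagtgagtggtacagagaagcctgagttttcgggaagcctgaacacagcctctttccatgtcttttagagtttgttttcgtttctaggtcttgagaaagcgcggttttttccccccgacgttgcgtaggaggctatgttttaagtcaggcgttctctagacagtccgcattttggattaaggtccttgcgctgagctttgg

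**Figure D3:**
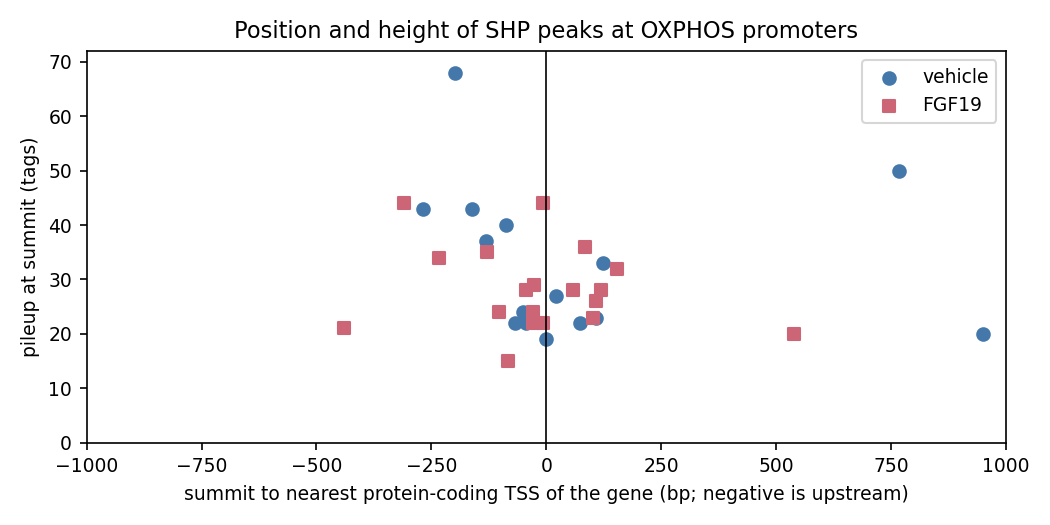
Pileup at the summit (y axis, tags) against the signed distance from the summit to the nearest protein-coding TSS of the gene (x axis, bp, negative is upstream) for promoter peaks with vehicle (circles) and FGF19 (squares). Most summits lie within 200 bp of the TSS, and the Ndufa4 vehicle peak at 68 tags is the tallest.

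At the promoters, summits sat close to the TSS in both groups. With vehicle 12 of 16 gene-and-peak pairs lay within 200 bp, and with FGF19 16 of 20, with median distances of 116 bp and 102.5 bp. Upstream positions made up 9 of the 16 with vehicle and 13 of the 20 with FGF19. The peaks were of ordinary strength. Median fold enrichment was 3.98 over the 15 vehicle promoter peaks (quartiles 3.29 and 4.74) and 4.12 over the 19 with FGF19 (3.86 and 4.72). Over all peaks within 1 kb of a protein-coding TSS the medians were 3.98 and 3.97. Median pileup was 27 tags with vehicle and 28 with FGF19, against 24 in both lists over such peaks.

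Several peaks counted by the 5 kb rule were nearer to the promoter of another gene. Of 31 gene-and-peak pairs with FGF19, 11 had the summit farther than 1 kb from a TSS of the gene, and 9 of these were within 1 kb of another gene's TSS. They were at the promoters of Ube2z (near Atp5g1), Midn (2 peaks near Atp5d), Mrpl36 (near Ndufs6), 1500032L24Rik (near Ndufa6), Rps2 (near Ndufb10), Ankrd12 (near Ndufv2) and the genes Donson and Itsn1. The last 2 fall inside the annotated Atp5o body, which spans 247290 bp in this annotation, and Atp5o itself had no peak at its promoter. Over all 11 distant FGF19 pairs the fold enrichment ran from 3.43 to 4.73. With vehicle, 2 of 18 pairs were of this kind, at Itsn1 inside Atp5o and at Tcirg1 beside Ndufs8. The other 2 distant FGF19 peaks were 7186 bp inside Sdhd, in the 3' UTR of exon 4, with a fold enrichment of 3.72, and 5394 bp from the Atp5h TSS, past the end of that gene, with 3.66. Counting only peaks whose nearest protein-coding TSS belongs to the gene left 12 genes with vehicle, 17 with FGF19 and 5 with both. The shares of all genes under this rule are not given here, so these counts cannot be set against them.

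Opposite-strand neighbours were common at these promoters. A TSS of a gene on the other strand lay within 1 kb of a TSS for 29 of the 94 genes, 30.9% (22.4 to 40.8), against 11.3% of all genes. Of the 28 genes with a promoter peak in either list it was 12, 42.9% (26.5 to 60.9), and of the 66 without, 17, 25.8% (16.8 to 37.4). Over all genes the shares were 25.2% with a promoter peak and 8.79% without. The intervals of the 28 and the 66 overlap. Partners included Mrpl47 (Ndufb5), Lrrc41 (Uqcrh), Wdr77 (Atp5f1), Ccdc127 (Sdha) and Kctd2 (Atp5h). At Atp5j, which encodes coupling factor 6, the partner was Gabpa, the DNA-binding subunit of GABP, and the FGF19 summit lay 37 bp from the Gabpa TSS and 540 bp from the nearest protein-coding Atp5j TSS, or 42 bp when all annotated Atp5j transcripts were taken. At a shared promoter the peak cannot be given to either gene.

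Promoter sequence was read from 250 bases before to 50 after the TSS with most transcripts. The NRF1 core GCGCANGCG was in 19 of the 94 promoters, 20.2%, and in 8.11% of all 22359 promoters read. The YY1 core AANATGGC was also in 19 (20.2%, against 6.69%), the ETS sequence CCGGAAG in 18 (19.1%, against 10.8%) and the NF-Y sequence ATTGGC in 22 (23.4%, against 16.2%). The SP1 sequence CCCCGCCCC was in 15 (16.0%, against 14.9%), the CRE TGACGTCA in 6 (6.38%, against 2.30%) and the ESRRA site TCAAGGTCA in 2, Atp5g3 and Sdhd. These were exact matches on either strand, and matches of different motifs could overlap. NRF1 and ETS matches were each in 9 of the 28 genes with a promoter peak, 32.1% (17.9 to 50.7). In the 66 without a peak, NRF1 was in 10, 15.2% (8.44 to 25.7), and ETS in 9, 13.6% (7.34 to 23.9). YY1 ran the other way, in 3 of the 28 (10.7%, 3.71 to 27.2) and 16 of the 66 (24.2%, 15.5 to 35.8). The promoter window leaves out some matches: Uqcrh and Atp5f1 had YY1 matches near the summit and none in the promoter window. Within 100 bp of the summits, YY1 was at 3 of 15 vehicle promoter peaks (20.0%, against 12.2% of all peaks near a TSS) and 2 of 19 with FGF19 (10.5%, against 8.32%). For each motif the intervals of the 28 and the 66 overlap. Among all genes, those with a promoter peak held NRF1 in 18% and ETS in 19.4%, and those without in 6.34% and 9.27%. For YY1 the shares were 10.7% and 5.97%, opposite in order to those of the oxidative phosphorylation genes. The GC content of the promoters was higher with a peak (median 64.7% against 53.7% without). For the oxidative phosphorylation genes the medians were 60.3% with a peak and 55.7% without. A match is no evidence of binding by the factor.

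**Figure D4:**
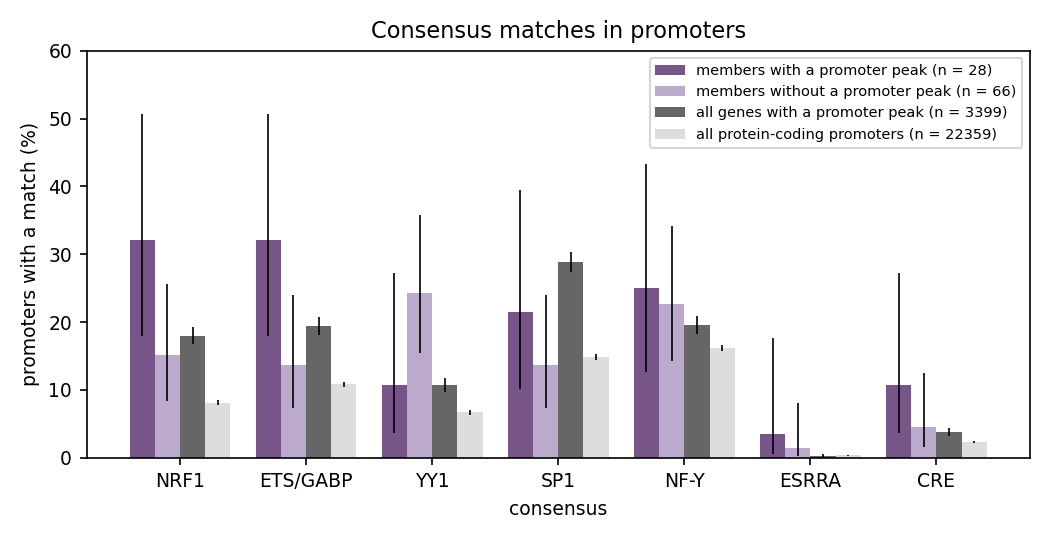
Share of promoters (y axis, %) with an exact match to each consensus (x axis) for oxidative phosphorylation genes with and without a promoter peak in either list, all genes with such a peak and all protein-coding promoters; error bars are Wilson 95% intervals for counting error. NRF1 and ETS matches are in 32.1% of the 28 genes with a peak, and YY1 matches in 24.2% of the 66 without.

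Other genes of mitochondrial energy metabolism were counted beside them in the same way, with no test between lists. Of 32 assembly factor and accessory genes outside the name rule, 6 had a vehicle peak within 5 kb (18.75%) and 10 an FGF19 peak (31.25%). Over all protein-coding nuclear genes these shares were 7.93% and 16.3%. Cox15, needed to make heme A, had an FGF19 promoter peak of 2.62, Hccs, which attaches heme to cytochrome c, one of 2.76, and the ATP synthase assembly factor gene Atpaf2 one of 3.48. Higd1a had peaks in both lists, 3.98 and 4.61. Of 17 regulators of mitochondrial biogenesis, 4 had a vehicle peak (23.5%) and 8 an FGF19 peak (47.1%). All 3 GABP subunit genes had an FGF19 promoter peak (Gabpa 3.72, Gabpb1 4.025 and Gabpb2 3.41), as had 12.3% of all genes. Gabpb2 also had a vehicle peak of 3.03. Esrra had an FGF19 promoter peak of 2.80 and Nrf1 a vehicle peak of 4.11. Yy1 had peaks in both lists, the strongest at 4.45 and 5.70. Of 18 citrate cycle and pyruvate dehydrogenase genes, 4 had a vehicle peak (22.2%) and 8 an FGF19 peak (44.4%), led by Idh3a at 5.74 with FGF19. Mdh2 had 5.30 with vehicle and 3.78 with FGF19. In these lists Dlat (3.53 and 3.27), Sdhaf2 (4.15 and 3.54) and Ecsit (2.56 and 2.35) also had the larger value with vehicle. The Sdhaf2 peaks were nearest to the TSS of Cpsf7. Those of Ecsit lay 13936 bp and 14016 bp from its TSS, nearest to that of Zfp653. Higd1a, Gabpb2, Yy1 and the promoter of Ppara (2.91 and 4.06) had the larger value with FGF19. For comparison, 13 of 77 mitochondrial ribosomal protein genes had a vehicle peak and 26 an FGF19 peak (16.9% and 33.8%). Of 83 cytosolic ribosomal protein genes these were 18 and 20 (21.7% and 24.1%). The shares of the oxidative phosphorylation genes, 19.1% and 28.7%, lay between those of the ribosomal lists in both groups.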

How the data were processed

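SHP ChIP-seq of pooled liver (3 mice per group) gave 1 ChIP and 1 input library for vehicle and for FGF19. Per the labels and file headers, the authors made reads with CASAVA 1.8.2, aligned them to mm9 with Bowtie 1.0.0 and called peaks against the group's own input with MACS2 2.0.10.20130501 (q-value cutoff 0.05, at most 1 tag per position, the larger of ChIP and input scaled to the smaller). The deposited signal is the summit pileup, counted in tags after extension, the deposited fold enrichment a ratio to the local input background, and the deposited -log10 p-value and q-value are those of the peak caller.

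Genes and TSS of protein-coding transcripts came from GENCODE M1, on the same build as the peaks. A peak was near a gene when it overlapped the gene body extended by 5 kb. A promoter peak had its summit within 1 kb of a TSS of the gene. Local input background was computed as (pileup + 1) / fold enrichment - 1. Wilson 95% intervals cover counting error only, and with 1 library per group no p-value is given. Motifs were searched within 100 bp of summits and in promoters of the mm9 sequence. Printed stretches were shortened to leave out all but 25 bases of a UTR.

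The named genes were all with a vehicle peak, those with an FGF19 peak ranked by fold enrichment up to 25, the complex II and cytochrome c genes, and all with a peak farther than 1 kb from their TSS; genes without a peak were named after the values were seen. The Cox7a2l sequence and stretches of up to 281 bases go beyond the planned choice. Members, lists and motifs were chosen with earlier results of these data known. Of 36 listed assembly and accessory genes 32 were found in the annotation, and all regulators and citrate cycle genes were. The steps were tested on simulated data in 4 checks. The alternatives changed the distance, the q-value cutoff, the assignment, the gene set and the overlap. The tools were matplotlib 3.10.9, networkx 3.6.1, scipy 1.17.1, pandas 2.3.3 and numpy 2.4.6 under Python 3.11.15. Reads and input signal were not analysed here.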

Additional observations from a re-analysis of the deposited data

Results flagged for a closer look

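Mitochondrial DNA lies outside the nuclear genes described above, and its peaks stood out in the FGF19 list. That list holds 7 peaks on the mitochondrial chromosome, and the vehicle list holds 0. They overlap 7 of the 13 protein-coding genes of that chromosome: mt-Nd1, mt-Nd2, mt-Nd4, mt-Nd5 and mt-Nd6 of complex I, mt-Co1 of complex IV and mt-Cytb of complex III. Their fold enrichment was low, from 1.25 to 1.5. Their pileups, from 459 to 520 tags, were the highest of the list, where no other peak was above 442. At most 1 tag is kept per position and strand, and with tags extended to 260 bp the pileup cannot exceed 520, which 4 of the 7 peaks reached. The FGF19 input held 17367587 tags after duplicate removal against 13444078 in the ChIP, and the larger library was scaled to the smaller. For vehicle these were 16164473 and 15473647. The highest local background of the FGF19 list was 402.5. The part of the ceiling and of this scaling in the fold enrichment, and in the 7 and 0 peaks, was not tested.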

How the results depend on the processing

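Of 34 alternative values computed for 6 results, 28 stayed within 1.5 times the reported count or, for a median, within its order-statistic interval. The count of 10 genes with a peak in both lists was the least stable. It was 6 when the peak had to overlap the gene body, 4 with a q-value below 0.00001, 5 when the nearest protein-coding TSS had to be that of the gene, and 4 with summits no more than 100 bp from each other. With a q-value below 0.00001 the genes with a vehicle peak went from 18 to 8 and those with an FGF19 peak from 27 to 20, and with the nearest TSS the FGF19 count was 17. Shortening the FGF19 list to the length of the vehicle list gave 18 genes with an FGF19 peak, equal to the vehicle count. For the settings named in this paragraph the shares of all genes are not given, so these counts cannot be set against them. The cause of these differences was not tested. With 1 pooled library per group no result has a replicate check, and the part of depth in the length of the lists was not tested.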
